A study of Mus musculus with 6 samples.

Results

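This section describes 1 comparison of a 6-array study: mast cells kept on fibroblasts that lack Lpar1, set against mast cells kept without fibroblasts. The arrays were chosen by their titles, which gave 2 of the 6 arrays, 1 per side. Wild-type bone marrow-derived mast cells were grown from mouse marrow in interleukin-3 (10 ng/ml). They were then kept for 4 days with stem cell factor (100 ng/ml) on Lpar1-/- Swiss 3T3 cells, an established mouse embryo fibroblast line. The baseline was Pla2g3+/+ mast cells without fibroblasts, for which stem cell factor is not stated. The Lpar1-/- line was made with CRISPR/Cas9 and taken through single-cell cloning, so it is 1 clone. RNA from 3 samples was pooled for each array. After coculture the mast cells were obtained either as the cells that did not adhere on reseeding or with magnetic beads against CD117 (Kit). Which route gave the arrayed RNA is not stated. A pair of wild-type cocultures is used for reference: Pla2g3+/+ mast cells on Swiss 3T3 fibroblasts, and wild-type mast cells on Lpar1+/+ Swiss 3T3 fibroblasts, with the same days and factors. The question, as the titles pose it, is which differences between cocultured and lone mast cells remain when the fibroblasts have no Lpar1.

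Lysophosphatidic acid is a signalling lipid made outside cells, largely by the enzyme autotaxin, and is read by G protein-coupled receptors of which LPAR1 is the one best known in fibroblasts. LPAR1 signals to the actin cytoskeleton and to the SRF and YAP programmes. Mast cells grown from marrow in interleukin-3 are immature. In contact with fibroblasts and stem cell factor they move toward the connective tissue type, which is known by its granule proteases, histamine, heparin and the Mrgprb receptors for basic secretagogues.

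Signal was measured on single-colour Agilent arrays, and a level is given throughout as log2 intensity relative to the 75th percentile of its own array, so levels of different genes are not compared. For the wild-type cocultures, levels and summed levels are given with the Pla2g3+/+ coculture first, and counts and medians with Lpar1+/+ fibroblasts first. With 1 array per condition there is no replicate error and no test. "Higher" and "lower" mean at least 2-fold, and "at least" marks a bound where the dimmer array was not well above background. As a yardstick, the log2 differences between the pair of wild-type cocultures had a standard deviation of 0.26 over 21930 genes, and 95% of them lay within 0.54. Both of those arrays lay on the same slide, so this spread leaves out differences between slides and between lone cultures. The 75th percentiles of the 6 arrays ran from 1230 to 1520 intensity units, 70.7% to 80.4% of spots were well above background, and no spot was saturated. The arrays without fibroblasts lay on one slide and all cocultures on another, so a slide effect and the effect of coculture cannot be told apart. The labels do not tell whether the same animals gave the lone and the cocultured cells.

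The labels could be checked only in part. Pla2g3, a secreted phospholipase A2, was brighter on the arrays labelled Pla2g3-/- than on the Pla2g3+/+ arrays, against that label: it read -6.31 on the lone Pla2g3+/+ array and 0.51 on the lone array labelled Pla2g3-/-. The doubt reaches the baseline used here, whose Pla2g3 genotype is therefore as labelled only. The lone array labelled Pla2g3-/- serves as an alternative baseline, and the coculture labelled Pla2g3-/-, on fibroblasts not stated to lack Lpar1, is given beside the results. The Lpar1 probe does not check the fibroblast genotype, because its signal was strongest without fibroblasts: -2.84 on the array of lone mast cells, -4.34 and -4.14 in the wild-type cocultures and -3.89 on Lpar1-/- fibroblasts, a 2.07-fold lower signal than alone. All 10 mast cell markers were well above background on both arrays compared. Of 18 fibroblast markers, 12 were well above background without fibroblasts and 17 on Lpar1-/- fibroblasts.

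On Lpar1-/- fibroblasts 3129 of 23725 genes (13.2%) were higher than in mast cells alone and 1707 (7.19%) were lower, with a median difference of 0.15 on the log2 scale over all genes. Higher genes made up 64.7% of those past 2-fold, a share that was 52.5% after normexp background correction and 50.7% after quantile normalization, where the median over all genes was 0. Against the same lone array, 2949 of 24102 genes (12.2%) were higher and 1739 (7.22%) lower on Lpar1+/+ fibroblasts. In the Pla2g3+/+ coculture 2948 of 22615 (13%) were higher and 1700 (7.52%) lower. The numbers past 2-fold were thus close in the 3 cocultures. In bulk RNA such as this, fewer cells of a type and less RNA per cell cannot be told apart.

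Of the 2446 genes that were higher in both wild-type cocultures, 1262 (51.6%) were also higher on Lpar1-/- fibroblasts, 983 (40.2%) stayed within 2-fold of the lone array, 143 (5.85%) were lower and 58 were not well above background on either array. Their median log2 difference was 1.09 on Lpar1-/- fibroblasts, against 1.74 in each wild-type coculture. Of the 1496 genes that were lower in both wild-type cocultures, 580 (38.8%) remained lower, 769 (51.4%) were within 2-fold and 147 (9.83%) were higher. Here the medians were -0.59 on Lpar1-/- fibroblasts and -1.65 and -1.60 in the wild-type cocultures. All of these comparisons share the lone array, so these counts describe the sets and are not independent of each other. Under other settings the share that remained higher ran from 41.8% (519 of 1243 genes, normexp) to 54.5% (3-fold limit). The share that remained lower ran from 34.7% (lone array labelled Pla2g3-/- as baseline) to 41.7% (quantile normalization). By list, 26 of 28 matrix genes, 14 of 15 contractile and SRF or YAP genes and all 11 fibroblast markers that were higher in both wild-type cocultures were also higher here. In contrast, 14 of 22 mitosis genes, 5 of 16 DNA replication genes and 7 of 18 immediate early genes were lower here, and no mitosis or replication gene remained higher.

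The coculture labelled Pla2g3-/- resembled the Lpar1-/- one in most lists, although its fibroblasts are not labelled as lacking Lpar1. On the same slide, 1199 of 23659 genes (5.07%) were higher and 276 (1.17%) lower on Lpar1-/- fibroblasts than in it, fewer than the 11.3% and 8.84% against Lpar1+/+ fibroblasts. Against the same lone array, 2582 of 22215 genes (11.6%) were higher in it and 1822 (8.2%) lower. Its medians were -1.19 for cholesterol, -1.52 for amino acid and unfolded protein response, -0.72 for immediate early, -0.86 for mitosis and -0.49 for DNA replication genes. Those lists were thus low in this coculture as well, and their levels were not particular to Lpar1-/- fibroblasts. Set directly against it, none of 30 cholesterol genes, none of 29 DNA replication genes and none of 32 core mast cell genes was past 2-fold on Lpar1-/- fibroblasts, and 4 of 32 mitosis genes were lower. Lists of fibroblast genes did differ from it. Here 15 of 40 matrix genes and 10 of 28 contractile and SRF or YAP genes were higher, with 1 of each lower. The neutrophil markers differed as well, with 12 of 17 higher. Connective tissue mast cell genes also differed in part, with 3 of 14 lower and 0 higher. In the cytokine and chemokine list 6 of 31 were lower and 3 higher.

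Genes of connective tissue mast cells were partly higher on Lpar1-/- fibroblasts. Of 14 members compared, 7 were higher, 2 lower and 5 within 2-fold, with a median of 0.99, while the medians in the wild-type cocultures were 1.46 and 1.77. The coculture labelled Pla2g3-/- was close to this, with 7 of 14 higher, 1 lower and a median of 0.94. On Lpar1-/- fibroblasts the median was 0.57 after normexp, 0.73 after quantile normalization and 0.58 with the mean over the probes of a gene. The members did not move as one: some stood between the lone and the wild-type cocultured levels, some were near the wild-type cocultures, and some were at or below the lone level. The probes of a tryptase and of an Mrgprb receptor whose levels are given below, with the Lpar1 probe, are printed here 5′ to 3′ as annotated (mm9).
Tpsab1, chr17:25480640-25480699, minus strand: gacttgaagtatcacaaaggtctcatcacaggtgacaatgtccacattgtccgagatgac
Mrgprb1, chr7:55702712-55702771, minus strand: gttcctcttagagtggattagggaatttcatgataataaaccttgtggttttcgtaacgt
Lpar1, chr4:58499672-58499731, minus strand: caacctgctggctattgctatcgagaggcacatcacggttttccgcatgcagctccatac

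The proteases stood in between. Tpsab1, a tryptase stored in granules, read -3.50 alone, 4.21 and 4.39 in the wild-type cocultures and -0.17 on Lpar1-/- fibroblasts, which was 10.1-fold above the lone array. The chymase Mcpt4 read 2.51 alone, 5.79 and 5.80 in the wild-type cocultures and 3.59 on Lpar1-/- fibroblasts, 2.11-fold above alone. Both genes thus stood between the lone array and the wild-type cocultures, as they did in the coculture labelled Pla2g3-/- (0.61 for Tpsab1 and 4.66 for Mcpt4). With the other lone array as baseline, where Tpsab1 read -5.18, its difference was 32.2-fold. Tpsb2, the other granule tryptase, was 2.24-fold higher (3.33 alone, 5.70 and 5.71, and 4.49), and its second probe gave a log2 difference of 1.11. The tryptases and the Mcpt and Mrgprb families have close relatives whose RNA may reach the same probe, which the files do not resolve. Cma1, another chymase, and Cpa3, the granule carboxypeptidase, stayed within 2-fold, with log2 differences of 0.10 and 0.11.

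The Mrgprb receptors split. Mrgprb2, the mouse receptor for basic secretagogues, was 27.3-fold higher than alone (-3.75 alone, 2.70 and 2.66 in the wild-type cocultures, 1.02 on Lpar1-/- fibroblasts). Mrgprb13 was 35.0-fold higher, and its level of -0.85 lay above those of the wild-type cocultures (-1.43 and -1.63). Mrgprb1 read -10.11 alone, where it was not well above background, 0.94 and 0.90 in the wild-type cocultures and -7.17 on Lpar1-/- fibroblasts. Its bound on Lpar1-/- fibroblasts was at least 1.90-fold. In the coculture labelled Pla2g3-/- it read -5.18, above its level on Lpar1-/- fibroblasts. The bound of Mrgprb1 was 0.075 on the log2 scale after normexp and 0 with the mean of its probes, so its position above the lone array is not settled.

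The enzymes of histamine, heparin and prostaglandin D2 also went separate ways. Hdc, which makes histamine, read 0.83 alone, 2.75 and 2.32 in the wild-type cocultures and -0.97 on Lpar1-/- fibroblasts. It was thus 3.48-fold lower than alone, whereas both wild-type cocultures were above alone. In the coculture labelled Pla2g3-/- Hdc read 0.46, within 2-fold of the lone level and above its level here. Hpgds, the haematopoietic prostaglandin D synthase, was 2.07-fold higher (0.45 alone, 2.06 and 1.88, and 1.50). Ndst2, which sulphates heparin, was 2.11-fold higher (4.30 alone, 4.56 and 4.49, and 5.38) and lay above both wild-type cocultures. Ptger3, a prostaglandin E2 receptor, was 2.01-fold lower, and it was lower in both wild-type cocultures as well. After median scaling the differences of Mcpt4 and Hpgds were 0.99 and 0.97, just under 2-fold.

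**Figure D1:**
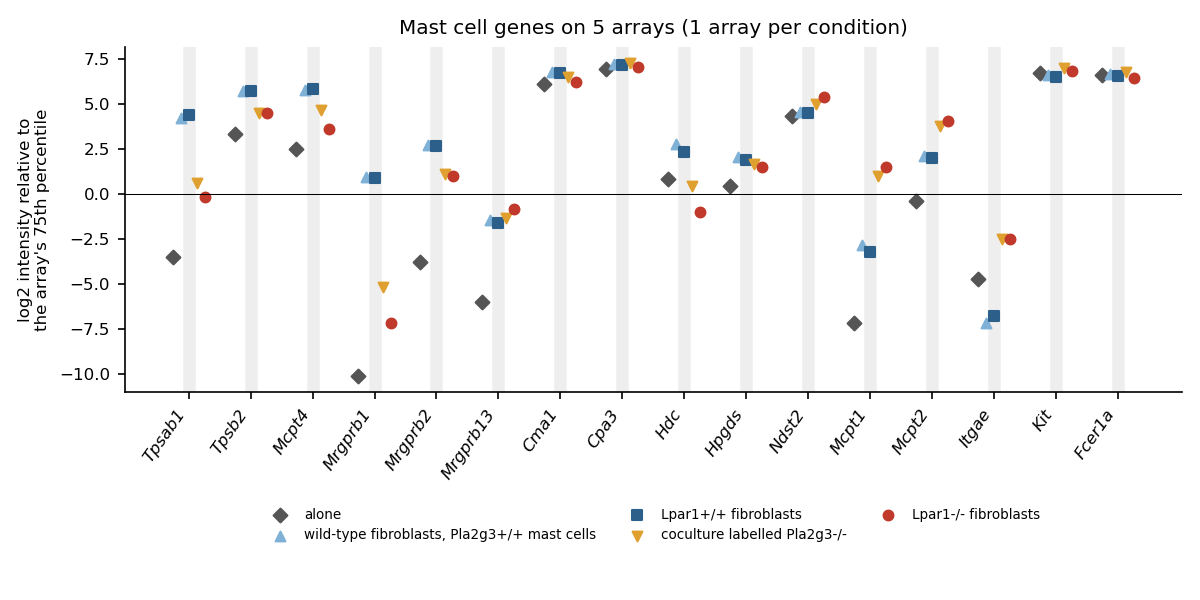
Level of 16 mast cell genes (vertical axis, log2 intensity relative to the array's 75th percentile) on 5 arrays, 1 per condition. Tpsab1, Tpsb2 and Mcpt4 on Lpar1-/- fibroblasts (red circles) lie between the lone array (grey diamonds) and the wild-type cocultures (blue); Mcpt1 and Mcpt2 lie above these arrays and near the coculture labelled Pla2g3-/- (orange), and Hdc lies below.

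Some proteases of the mucosal mast cell type were far above both the lone and the wild-type cocultured levels. Mcpt1, a chymase of mucosal mast cells, read -7.17 alone, -2.85 and -3.23 in the wild-type cocultures and 1.53 on Lpar1-/- fibroblasts, 416-fold above alone. Mcpt2, its neighbour in the chymase locus, was 21.5-fold higher (-0.36 alone, 2.11 and 2.02, and 4.07). Itgae, the integrin chain that pairs with beta 7 and is typical of mucosal mast cells, was 4.68-fold higher than alone, while both wild-type cocultures were below the lone array (-4.74 alone, -7.15 and -6.77, and -2.51). The coculture labelled Pla2g3-/- showed levels close to these: 1.02 for Mcpt1, 3.78 for Mcpt2 and -2.49 for Itgae. Itgb7 kept its lone level (5.03 and 5.12) and read 3.22 and 3.25 in the wild-type cocultures. The basophil and mast cell protease Mcpt8 was 2.21-fold lower (1.35 alone, 0.20 here), but the other lone array read -0.04, so that this call rests on the baseline. Separately, the transmembrane tryptase Tpsg1 differed by 0.50 on the log2 scale, with 2.94 and 3.05 in the wild-type cocultures against -0.81 alone and -0.31 on Lpar1-/- fibroblasts. Of the 9 members, 3 were higher and 1 lower, with a median of 0.50, which was 1.63 with the other lone array and 0.23 after normexp.

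Core mast cell identity genes were close to the lone array. Among 32 members, 3 were higher and 0 lower, with a median of 0.06. Kit, the stem cell factor receptor (0.13), the high-affinity IgE receptor chains Fcer1a (-0.13) and Ms4a2 (-0.24), and the transcription factors Gata2 (0.17) and Mitf (0.26) all lay within 2-fold. The higher members were the serotonin transporter Slc6a4 (4.16-fold), the ATP receptor P2rx7 (2.31-fold) and the signal transducer Stat5a (2.21-fold). None of these was at least 2-fold higher in a wild-type coculture. Rgs13, a regulator of G protein signalling, read -1.23 alone and -1.11 on Lpar1-/- fibroblasts, against 0.93 and 1.00 in the wild-type cocultures.

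In the heparin and chondroitin sulphate list 6 of 23 genes were higher and 2 lower (median 0.10). Xylt1, which starts the sugar chain, was 4.31-fold higher (-1.34 alone, 1.39 and 1.30, and 0.77). Chst15, which makes the disulphated chondroitin of mast cell granules, was 3.52-fold higher (0.59 alone, 1.07 and 1.16, and 2.41), above both wild-type cocultures. Dse, a dermatan sulphate epimerase, was 6.05-fold higher, and Chsy1, a chondroitin synthase, 2.49-fold lower. Granule exocytosis genes moved little, with 3 of 24 higher and 1 lower (median 0.05), where 13.2% of all genes were higher and 7.19% lower. The synaptotagmins Syt3 (3.35-fold) and Syt11 (2.55-fold) were among the higher ones, and Vamp3, a vesicle fusion protein, was the lower one (2.12-fold).

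Many immediate early and ERK feedback genes were lower on Lpar1-/- fibroblasts. Genes of this kind can respond to recent signalling, among others through Kit and MAP kinases, but signalling itself was not measured. Of 39 members, 4 were higher and 18 lower with a median of -0.79, whereas 21 and 19 were higher in the wild-type cocultures, whose medians were 1.20 and 0.99. Egr2, a zinc finger factor, read -0.09 alone, 2.92 and 3.15 in the wild-type cocultures and -3.92 on Lpar1-/- fibroblasts, 14.3-fold below alone. Fosb, an AP-1 subunit, was 14.5-fold lower (2.31 alone, 4.52 and 4.96, and -1.54), and Egr1 differed by -3.60 on the log2 scale (2.49 alone, 3.86 and 4.09, and -1.10). For all 3 genes the order was the same: wild-type cocultures above the lone array, and Lpar1-/- fibroblasts below it. The coculture labelled Pla2g3-/- was below the lone array too, at -2.50 for Egr2, -2.28 for Fosb and 0.16 for Egr1.

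Several growth factor response genes were lower here although the wild-type cocultures were near the lone array. Dusp6, the ERK phosphatase, read 3.11 alone, 3.49 and 3.36 in the wild-type cocultures and -0.62 on Lpar1-/- fibroblasts, 13.2-fold below alone. Spry1, which dampens receptor tyrosine kinases, was 19.5-fold lower (-2.42 alone, -2.32 and -2.30, and -6.71), Spred2 6.65-fold and Dusp4 6.54-fold lower, the last being above alone in the wild-type cocultures. Spry1 read -6.83 in the coculture labelled Pla2g3-/-. The growth factor response gene Myc was 9.07-fold lower (2.15 alone, 1.95 and 1.85, and -1.03). Klf2 was 21.1-fold lower (3.28 alone, 2.41 and 1.89, and -1.12). Unlike Myc, Klf2 was already below the lone array in the wild-type cocultures, past 2-fold on Lpar1+/+ fibroblasts. The 4 higher members were the AP-1 subunit Fosl1 (11.8-fold), the mRNA decay factor Zfp36 (3.57-fold), Klf4 (2.92-fold) and the antiproliferative gene Btg2 (2.45-fold). Jun (0.03), Nfkbia (0.06) and Egr3 (0.01) kept their lone levels although each lay above them in the wild-type cocultures.

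**Figure D2:**
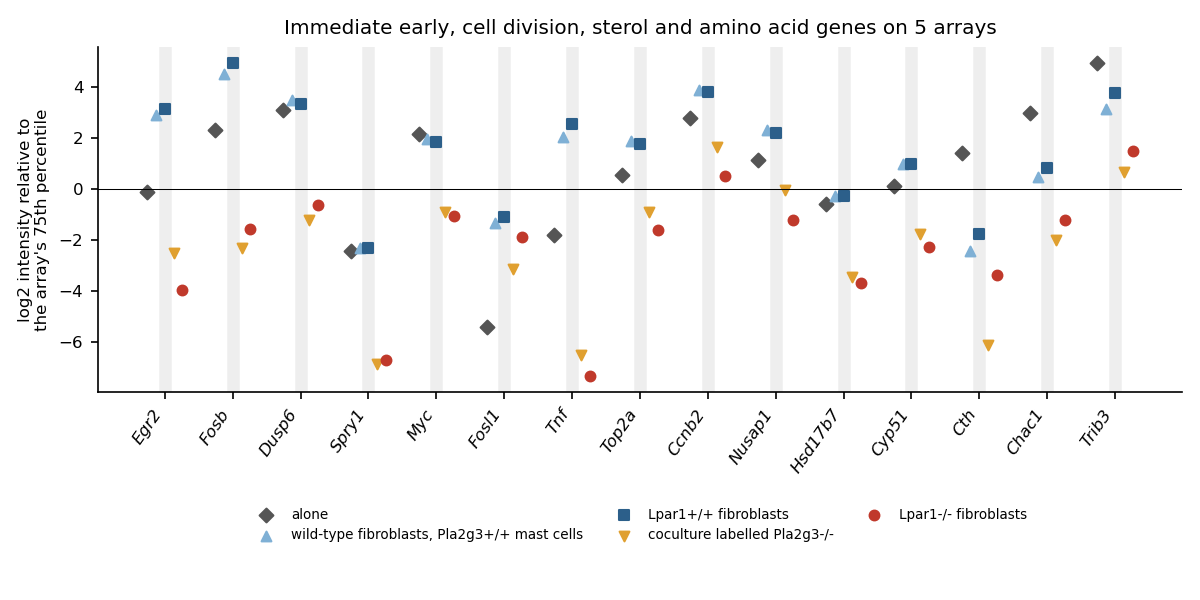
Level of 15 genes (vertical axis, log2 intensity relative to the array's 75th percentile) on 5 arrays, 1 per condition. Apart from Fosl1, each gene plotted is below the lone array (grey) on Lpar1-/- fibroblasts (red circles), for example Tnf at -7.33, and below it in the coculture labelled Pla2g3-/- (orange).

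Cytokine and chemokine genes went in both directions. Of 31 members compared, 7 were higher and 12 lower (median -0.36), against 16 higher in each wild-type coculture (medians 0.81 and 0.97). Tnf, a cytokine that mast cells store and make, read -1.78 alone, 2.04 and 2.58 in the wild-type cocultures and -7.33 on Lpar1-/- fibroblasts, 46.9-fold below alone, and -6.47 in the coculture labelled Pla2g3-/-. Il13 was 12.8-fold lower, the chemokine Ccl1 6.25-fold, Ccl7 5.78-fold (2.90 alone, 5.87 and 5.91, and 0.37) and Ccl2 4.57-fold (6.12 alone, 7.09 and 7.10, and 3.93). Lif, Osm and Il6 were 7.41-fold, 4.73-fold and 3.06-fold lower, and these were below the lone array in the wild-type cocultures too. The higher members included Cxcl12, a stromal chemokine (67.9-fold), Cxcl1 (at least 36.6-fold), Ccl8 (at least 12.8-fold), Cxcl5 (at least 10.3-fold) and Cx3cl1 (7.65-fold). Cxcl1, Cxcl5 and Ccl8 were not well above background in mast cells alone. Fibroblast markers were higher in the same coculture, and their part in these differences was not tested.

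Genes of cell division were lower on Lpar1-/- fibroblasts and higher in the wild-type cocultures. Of 32 mitosis genes, 22 were lower and 0 higher (median -1.21), where 22 and 28 were higher and 0 lower in the wild-type cocultures (medians 1.102 and 1.226). Nusap1, a spindle protein, was 5.11-fold lower than alone (1.14 alone, 2.33 and 2.21, and -1.21). Ccnb2, a mitotic cyclin, was 4.94-fold lower (2.81 alone, 3.90 and 3.80, and 0.50), and Top2a, which untangles chromosomes, 4.38-fold lower (0.55 alone, 1.88 and 1.76, and -1.58). Mki67, the common proliferation marker, was 3.90-fold lower. Kif20a, a kinesin, was the one member of the 32 above its lone level, at 0.64.

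DNA replication genes followed with smaller differences. Of 30, 8 were lower and 0 higher (median -0.78), against 16 and 21 higher and 0 lower in the wild-type cocultures. Pole, a leading-strand polymerase, was 3.59-fold lower (0.66 alone, 2.01 and 1.84, and -1.19), and Rrm2, which supplies deoxynucleotides, 3.14-fold lower. The Mcm helicase subunits stayed within 2-fold, from -0.76 for Mcm2 to 0.22 for Mcm4, apart from Mcm5, which was 2.28-fold lower. Set directly against Lpar1+/+ fibroblasts on the same slide, where 11.3% of genes were higher and 8.84% lower, 30 of 32 mitosis genes and 26 of 30 replication genes were lower and none was higher.

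The CDK inhibitor and antiproliferative list gave 6 higher and 2 lower of 21. Its median of 0.23 was -0.17 with the other lone array as baseline. Cdkn1b, the p27 inhibitor, was 2.33-fold higher (2.80 alone, 1.62 and 1.72, and 4.02), opposite to the wild-type cocultures. Ccng2, a cyclin of arrested cells, was 3.36-fold higher, Mdm2 4.09-fold and Plk2 7.62-fold, the latter pair being above the lone array in the wild-type cocultures as well. Plk3, a kinase of the stress response, was 11.9-fold lower and Cdkn2b 2.51-fold lower. Of 15 BCL-2 family genes 10 were within 2-fold, Bcl2 (5.82-fold), Bcl2a1d (6.86-fold) and Bcl2l1 (2.61-fold) were lower, and Bcl2l11 (3.82-fold) and Bok (at least 82.7-fold) higher. The higher share was that of all genes, and the median of 0.26 was near 0 after normexp and with the mean of probes.

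Cholesterol and fatty acid synthesis genes were lower on Lpar1-/- fibroblasts and in the coculture labelled Pla2g3-/-, and not in the wild-type cocultures. Of 30 members 20 were lower and 0 higher (median -1.43), whereas the medians of the wild-type cocultures were 0.54 and 0.47, with 0 lower in either. Hsd17b7, a late enzyme of the sterol pathway, was 8.42-fold lower (-0.59 alone, -0.27 and -0.28, and -3.67). Cyp51, which demethylates lanosterol, was 5.17-fold lower (0.13 alone, 1.00 and 1.00, and -2.24), and Idi1 5.08-fold and Scd1 5.06-fold lower. In the coculture labelled Pla2g3-/- Hsd17b7 read -3.42 and Cyp51 -1.74, and 20 of the 30 members were lower than alone there. The factors that drive the pathway, Srebf2 (-0.31) and Srebf1 (-0.24), stayed within 2-fold.

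The list for amino acid stress and unfolded proteins also lay low: 20 of its 30 genes were lower, with 0 higher and a median of -1.38. The wild-type cocultures had 5 and 6 lower members, with medians of -0.25 and -0.56. Cth, an enzyme of cysteine synthesis, was 27.2-fold lower (1.41 alone, -2.41 and -1.76, and -3.36), so that it was low in every coculture. Chac1, which degrades glutathione, differed by -4.17 on the log2 scale (2.98 alone, 0.48 and 0.82, and -1.19), and Trib3, a pseudokinase of the stress response, 10.9-fold lower (4.96 alone, 3.16 and 3.79, and 1.51). Asns, asparagine synthetase, was 3.93-fold lower, Psat1, of serine synthesis, 3.81-fold, and Atf4, the factor of this response, 2.40-fold. Of 30 hypoxia and glycolysis genes 8 were lower and 2 higher (median -0.47), the lower ones including Pdk1 (3.92-fold), Aldoc (3.58-fold) and Pgk1 (3.11-fold).

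**Figure D3:**
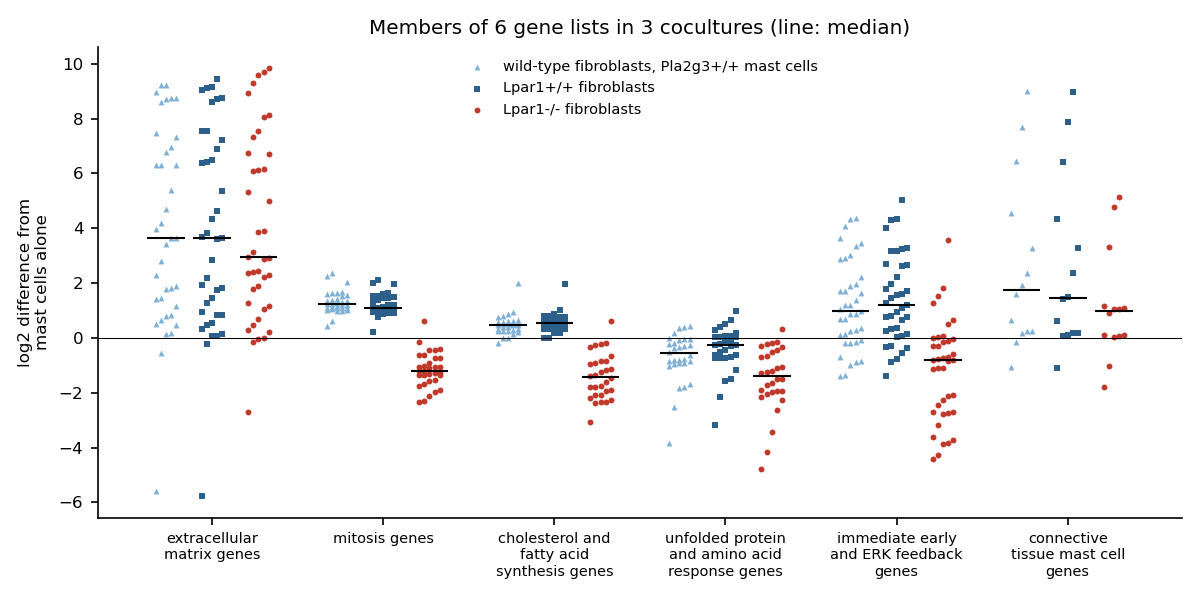
Log2 difference from mast cells alone (vertical axis) for every compared member of 6 gene lists in 3 cocultures, with bounds drawn at the bound and lines at the medians. The red points of the mitosis, sterol and amino acid lists lie almost wholly below 0, while those of the extracellular matrix list lie mostly above it.

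For 5 lists with many lower members, the 250 bases before their starts were searched on both strands for letters known from such genes, in RefSeq's promoter table (GRCm38.p6). The sterol regulatory element TCACNCCAC was found in 1 of 21 sterol list genes with an entry (4.76%) and 1.22% of all 27025 genes. The amino acid response element TGATGNAA was in 6 of 28 (21.4%) against 3.91%, the cell cycle genes homology region TTTGAA in 10 of 27 mitosis genes (37.0%) against 18.3%, and the E2F site GGCGGGAA in 3 of 24 replication genes (12.5%) against 2.13%. The CArG box, bound by SRF, was in 3 of 30 immediate early genes (10.0%) against 1.62%, and 1 of these 3, Zfp36, was higher on Lpar1-/- fibroblasts. These shares cover whole lists, and a relation to the lower signals was not tested. For lower members with an entry, matches were in 1 of 12 sterol, 5 of 18 amino acid and 8 of 18 mitosis genes. They were in 1 of 6 lower replication genes and 2 of 14 lower immediate early genes. A match is a string of letters and not a measured site. For 1 gene of each of 4 lists, the matching stretch is printed on the gene's strand, 5′ to 3′, with the matched letters in capitals.
Hmgcs1 (sterol regulatory element), chr13:119690174-119690262, plus strand: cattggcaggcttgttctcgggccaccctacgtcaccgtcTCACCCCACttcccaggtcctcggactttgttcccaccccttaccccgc
Chac1 (amino acid response element, reverse complement), chr2:119351009-119351096, plus strand: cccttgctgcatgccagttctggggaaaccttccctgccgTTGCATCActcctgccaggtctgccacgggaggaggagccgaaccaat
Ccnb2 (cell cycle genes homology region), chr9:70421676-70421761, minus strand: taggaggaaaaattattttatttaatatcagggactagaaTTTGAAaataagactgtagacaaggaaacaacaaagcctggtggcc
Egr2 (CArG box), chr10:67537757-67537846, plus strand: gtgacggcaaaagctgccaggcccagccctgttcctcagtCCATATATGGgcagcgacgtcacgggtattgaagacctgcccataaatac

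Fibroblast transcripts were abundant in every coculture, the Lpar1-/- one included. Of 40 extracellular matrix genes 32 were higher than alone and 1 lower on Lpar1-/- fibroblasts (median 2.95), against medians of 3.66 and 3.65 in the wild-type cocultures. The median was 1.37 after normexp. Col1a1, a chain of type I collagen, read -7.67 alone, 1.56 and 1.77 in the wild-type cocultures and 2.16 on Lpar1-/- fibroblasts, 913-fold above alone. Serpinh1, the collagen chaperone, was 631-fold higher, Col1a2 496-fold, Sparc 284-fold and Fbln2 at least 842-fold. Timp1, an inhibitor of matrix proteases, was 771-fold higher, with 2.51 on Lpar1-/- fibroblasts against -0.30 and -0.19. Timp3 was the lower member, at 6.55-fold, and was lower in the wild-type cocultures as well. The summed linear level of the 18 fibroblast markers was 36 alone, 135 and 126 in the wild-type cocultures and 59.4 on Lpar1-/- fibroblasts, a sum that the brightest probes carry. In the coculture labelled Pla2g3-/- the sum was 60.5, so the lower sum was not particular to Lpar1-/- fibroblasts. The median difference of these markers from alone was 3.23 here and 3.05 and 2.83 in the wild-type cocultures, and directly against Lpar1+/+ fibroblasts 4 of 17 were higher and 3 lower (median 0.39). The part of fibroblast RNA in the differences of other lists was not tested.

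A few genes separated the Lpar1-/- fibroblast culture from the wild-type ones by their pattern of expression. Dlk1, a Notch-like surface protein of immature stromal cells, read -6.39 alone, -3.30 and -3.43 in the wild-type cocultures and 2.91 on Lpar1-/- fibroblasts, 631-fold above alone. Grem1, an antagonist of BMPs, was at least 281-fold higher (-6.62 and -6.00 in the wild-type cocultures, 0.04 on Lpar1-/- fibroblasts). Thy1, a surface glycoprotein of many fibroblasts and of some leukocytes, was 8.71-fold higher than alone and unlike the coculture labelled Pla2g3-/- (-9.20), whereas the wild-type cocultures were below the lone array (-2.36 alone, -7.71 and -6.85, and 0.76). Tm4sf1, a membrane protein, was 929-fold higher than alone (2.36 here), and the wild-type cocultures were already 185-fold and 179-fold higher (0.03 and -0.02). In the coculture labelled Pla2g3-/- Tm4sf1 read 0.90, between those levels. Dlk1 and Grem1 read -3.67 and -5.06 in the coculture labelled Pla2g3-/-, far below their levels here. Whether these patterns come from the loss of Lpar1 or from the clone cannot be told apart, as the line is 1 clone.

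Contractile and SRF or YAP target genes were mostly higher than alone. Of 28 members 18 were higher and 1 lower (median 1.26), against medians of 1.45 and 1.67 in the wild-type cocultures. Acta2, smooth muscle actin, read -6.17 alone, -0.84 and -0.83 in the wild-type cocultures and 1.93 on Lpar1-/- fibroblasts, 274-fold above alone. Myl9, a myosin light chain, was 127-fold higher (-6.21 alone, -3.73 and -3.84, and 0.78) and Actg2 at least 128-fold (-7.93 and -7.35 in the wild-type cocultures, -1.09 here). Each of these muscle genes was thus above the wild-type cocultures, and above the coculture labelled Pla2g3-/- as well (-2.50 for Acta2, -5.16 for Myl9). Among the CCN genes, Ccn2 was at least 80.2-fold higher (-5.02 and -5.29, and -1.76), Ccn1 12.4-fold (-6.09 alone, -1.26 and -1.21, and -2.46) and Ccn4 at least 60.5-fold, with Ccn1 and Ccn4 below the wild-type cocultures. Ccn3 was the lower member at 19.4-fold (-0.04 alone, -2.71 and -2.92, and -4.32). Ubiquitous members such as Actb (-0.08), Flna (0.01), Srf (0.07) and Myh9 (0.07) kept their lone levels.

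**Figure D4:**
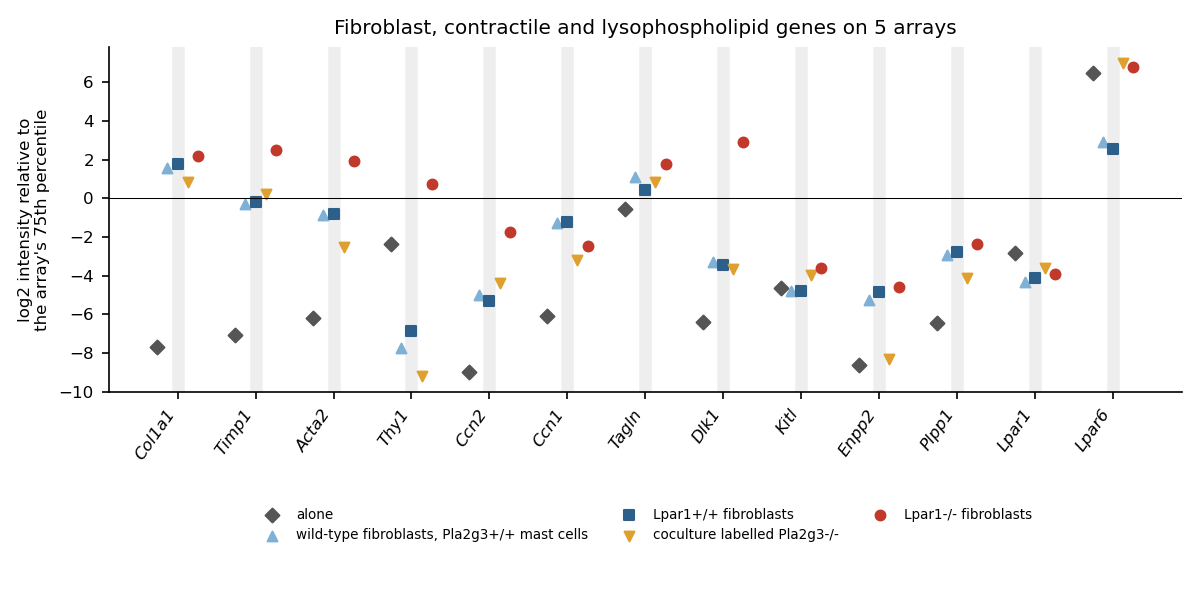
Level of 13 fibroblast, contractile and lysophospholipid genes (vertical axis, log2 intensity relative to the array's 75th percentile) on 5 arrays, 1 per condition. Timp1, Acta2, Dlk1 and Thy1 are highest on Lpar1-/- fibroblasts (red circles), and Lpar6 there reads 6.76, near its lone level of 6.48.

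Of 22 fibroblast signals known to act on mast cells, 10 were higher and 1 lower (median 0.76). The median was 0.19 after normexp and 0.33 after quantile normalization. Vcam1, an adhesion molecule for integrin alpha 4, was at least 82.9-fold higher (-0.06 and 0.21 in the wild-type cocultures, -1.72 here), Jag1, a Notch ligand, 33.8-fold and Fgf7, a growth factor, 12.3-fold. Tgfb3 differed by 3.60 on the log2 scale (-6.10 alone, -4.64 and -4.65, and -2.50). Tslp, an epithelial and stromal cytokine, kept its lone level (-7.36 and -7.00) and read -4.33 in both wild-type cocultures. Kitl, which encodes stem cell factor, read -4.62 alone, -4.77 and -4.79 in the wild-type cocultures and -3.62 on Lpar1-/- fibroblasts.

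Genes that make, degrade or read lysophosphatidic acid and sphingosine 1-phosphate gave 7 higher and 2 lower of 22 (median 0.51). Enpp2, autotaxin, was at least 11.6-fold higher (-8.59 alone, -5.27 and -4.85, and -4.56), a bound that became 0.84 on the log2 scale after normexp. Plpp1, a phosphatase that removes lysophosphatidic acid, was 16.8-fold higher (-6.43 alone, -2.95 and -2.78, and -2.35). Among the receptors, Lpar2 was 4.68-fold higher (-7.37 alone, -3.12 and -2.93, and -5.14) and Lpar4 2.19-fold, both below the wild-type cocultures. Lpar6, another of these receptors, read 6.48 alone, 2.91 and 2.56 in the wild-type cocultures and 6.76 on Lpar1-/- fibroblasts. That was within 2-fold of alone, and Lpar6 was above alone in the coculture labelled Pla2g3-/- as well. Spns2, which exports sphingosine 1-phosphate, was 4.30-fold lower and S1pr1, its lymphocyte and endothelial receptor, 2.14-fold higher. Among 22 phospholipase A2 genes 2 were higher and 0 lower, the lysosomal Pla2g15 (2.49-fold) and Pla2g3 (2.76-fold). This higher share was not above the 13.2% of all genes. The Pla2g3 difference of 1.47 was 0.44 after normexp, and -5.36 with the array labelled Pla2g3-/- as baseline.

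In the prostaglandin and leukotriene list 4 of 27 were higher and 6 lower (median -0.23). Over all genes 13.2% were higher and 7.19% lower, so the higher share was near that of all genes. Ptgis, prostacyclin synthase, was 48.5-fold higher (-6.79 alone, -3.16 and -3.03, and -1.19) and Ptgs2, the inducible cyclooxygenase, 9.30-fold (-4.32 alone, -2.87 and -2.55, and -1.10), both above the wild-type cocultures. Ltc4s, which makes leukotriene C4, was 4.21-fold lower, Ptgs1, the constitutive cyclooxygenase, 2.97-fold, and Ltb4r1, a leukotriene B4 receptor, 6.06-fold. All 3 were lower than alone in the wild-type cocultures too. Alox5 (-0.39) and its partner Alox5ap (0.06), the first steps of leukotriene synthesis, stayed within 2-fold.

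Integrin and adhesion genes gave 7 higher and 2 lower of 29 (median 0.21). Itga4, the chain that binds VCAM-1, was 4.05-fold higher (-2.34 alone, 0.32 and 0.32, and -0.32), and Itgb5 35.1-fold. Itgax was 5.51-fold higher and Itga6, a laminin receptor chain, 3.20-fold. Cd24a, a surface sialoglycoprotein of immature cells, read 3.57 alone, -3.52 and -3.44 in the wild-type cocultures and 1.94 on Lpar1-/- fibroblasts, 3.09-fold below alone. Cdh1 (E-cadherin) likewise kept its lone level (-3.83 and -3.95) and read -7.81 and -7.45 in the wild-type cocultures.

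In the Notch and retinoic acid list 6 of 22 were higher and 2 lower (median 0.44). The median was 0 after normexp. Cyp26a1, which degrades retinoic acid, was 4.38-fold higher and the Notch target Hey1 3.98-fold, whereas Hes1 (0.05) kept its lone level. Lysosome genes gave 2 higher and 4 lower of 30 (median 0.05). Ctsl was 20.6-fold and Lgmn 3.63-fold higher, and Ctss and Ctsg, a granule protease, were 4.47-fold and 4.46-fold lower. Among iron handling genes 2 of 13 were higher and 1 lower (median 0.21), the lower one being the transferrin receptor Tfrc (7.36-fold). These iron gene shares were near those of all genes, 13.2% higher and 7.19% lower.

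Interferon response genes gave 3 higher and 8 lower of 33 on Lpar1-/- fibroblasts, and the median of 0.13 was -0.14 after quantile normalization. The wild-type cocultures had 10 and 13 lower members (medians -0.66 and -0.55). Oas2 was 5.47-fold lower and Rtp4 4.59-fold, while Gbp2, a guanylate-binding protein, was 3.56-fold higher and Oasl2 2.87-fold. In the antigen presentation list 5 of 21 were lower and none higher. These were the class II genes H2-Eb1 (9.83-fold), H2-Aa (7.66-fold) and H2-Ab1 (4.91-fold), with Nlrc5 (2.36-fold) and Cd86 (2.10-fold), and the first 3 were lower than alone in the wild-type cocultures.

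Markers of other marrow cells were present in the lone culture and moved with the comparison. Of 17 neutrophil markers 10 were lower on Lpar1-/- fibroblasts (median -1.53), among them Stfa1 (5.03-fold), Ngp (4.39-fold) and S100a8 (3.59-fold). Of 10 eosinophil markers 6 were lower and 2 higher (median -2.33), with Ear2 at least 59.8-fold and Prg2 17.3-fold lower, and the receptors Ccr3 and Il5ra 4.38-fold and 5.96-fold higher. With the other lone array, labelled Pla2g3-/-, as baseline the medians were 1.33 for neutrophil and 0.72 for eosinophil markers, so the direction of these lists rests on the lone array used. The summed neutrophil level was 103 alone, 59.9 and 54.1 in the wild-type cocultures and 71 on Lpar1-/- fibroblasts, with 16 of 17 markers well above background alone and 17 on Lpar1-/- fibroblasts. The eosinophil sums were 2.24, 1.07, 1.09 and 1.11 in that order, with 10 of 10 and 7 of 10 markers well above background. For 19 macrophage and dendritic markers the sums were 24.2, 18, 17.3 and 39.6, and 17 were well above background on each array compared. Of 18 compared, 6 were lower and 2 higher (median -0.39), a median that was 0.66 with the other lone array. In the coculture labelled Pla2g3-/- the neutrophil, eosinophil and macrophage sums were 60.2, 1.04 and 54.9. The macrophage sum was thus above the wild-type cocultures there too. The platelet markers Pf4 and Ppbp were 13.1-fold and 11.7-fold lower, while the other 10 platelet markers included 1 lower. Of 7 basophil markers 1 was lower, and none of 6 lymphocyte markers was past 2-fold. The part of these cells in the differences of class II, leukotriene and cytokine genes was not tested.

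Among the 12 lowest genes that were well above background on both arrays, Tnf was the list member. Mgarp was 82.1-fold lower than alone, Dnah7b and Dnah7c, near-identical dynein genes that probes may not tell apart, 80.9-fold and 72.5-fold, and Gimap3, a GTPase of lymphoid cells, 69.3-fold. Mycn, a relative of Myc, was 45.3-fold lower (1.21 alone, 0.04 and -0.48, and -4.29), and Car12, a carbonic anhydrase, 28.6-fold (3.24 alone, -1.93 and -1.67, and -1.60). Mycn and Mgarp (-7.84 here, -4.02 and -3.94 in the wild-type cocultures) lay below both wild-type cocultures, Car12 lay near them, and Dnah7b (-4.01 here, -6.73 and -7.08) lay above them.

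Finally, the genes whose level returned furthest toward, or past, the lone array were taken from both directions. Among genes that were higher in both wild-type cocultures these were, besides Tnf, Egr2 and Mrgprb1, the synaptotagmin Syt13 (-7.56 alone, -0.34 and -0.23, and -9.42), Egr4 (-7.36 alone, -3.03 and -2.34, and -10.61), Wfdc17 (10.1-fold below alone) and the transcription factor genes Spib and Wt1. Spib and Wt1 were not well above background on either array compared, so their rank carries no measured distance. On Lpar1-/- fibroblasts Syt13 and Egr4 read below that array's lowest signal well above background (-8.45), so their distances were not fully measured. Among genes that were lower in both, besides Thy1 and Cd24a, they were Ahrr, the repressor of the aryl hydrocarbon receptor (2.83 alone, -3.54 and -3.37, and 1.84), the protease Adamts15 (-1.62 alone, -8.98 and -10.59, and -2.45), the neuronal gene Nsg2, Dynap, 1700113H08Rik and 3110040M04Rik. Dynap was 17.6-fold higher than alone. Ahrr, Adamts15 and Nsg2 were within 2-fold of the lone array, at -0.98, -0.83 and -0.75. The Adamts15 levels in the wild-type cocultures lay below the lowest signals well above background there (-8.07 and -8.44).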

How the data were processed

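RNA of 6 pools was hybridised to single-colour Agilent mouse arrays, per the labels. The authors read each spot's intensity in the scanner files with version 12.1.1.1 of Agilent's Feature Extraction, per the file headers. Their deposited value table is on a linear signal scale, and each of its columns equals the intensity divided by 1 constant. Here log2 of the processed intensity minus the array's 75th percentile was used over 43020 noncontrol spots. Spots marked as outliers (84 to 115 per array) were dropped. Genes were named through RefSeq accessions (33002 spots), symbols (3072) or synonyms (16), and 6930 spots kept the file's name. The brightest probe over the 6 arrays stood for each of 29590 genes, and probe coordinates are on mm9. A gene was compared where well above background on at least 1 array. A bound was taken against the higher of the dim probe's own signal and the lowest signal well above background. From the files' spot errors, a named gene's difference had a median error of 0.20 (log2), which leaves out the spread between cultures. No p-value is given with 1 array per side. Named genes were 15 fixed ones, the 12 highest and 12 lowest, the 5 largest bounds per direction, up to 4 past 2-fold per list and direction, and the 8 per direction furthest back toward the lone array. List members within 2-fold are examples. Members, lists and rules were chosen with earlier results of these data known. Alternatives were another background correction, 2 other scalings, the deposited table, 2 filters on dim probes, the mean of probes, the other lone array and a 3-fold limit. The comparison with the coculture labelled Pla2g3-/- was added after seeing the data. The steps were tested on simulated data. Tools were Python 3.11.15, numpy 2.4.6, pandas 2.3.3, matplotlib 3.10.9 and, for normexp (offset 50), limma 3.58.1 in R 4.3.3. A few list members are not reported here.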

Additional observations from a re-analysis of the deposited data

Results flagged for a closer look

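The medians of 3 gene lists on Lpar1-/- fibroblasts lay on the opposite side of the lone array from both wild-type cocultures. They were immediate early and ERK feedback genes (-0.79), DNA replication genes (-0.78) and mitosis genes (-1.21). The 3 comparisons share the lone array, and with 1 array per condition the difference between them was not tested. In the coculture labelled Pla2g3-/- the same medians were -0.72, -0.49 and -0.86.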

How the results depend on the processing

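With 9 other settings, 375 values stayed close to those reported, 56 moved further and 3 large values reversed. Close meant within 0.26 on the log2 scale, within 1.5 times for counts or within 10 percentage points for shares. Smaller medians changed sign as well, among them macrophage markers (-0.386 to 0.661 with the other lone array). With normexp 1349 genes were higher, and at 3-fold 1397 were higher and 706 lower. Normexp gave medians of 0.572 for connective tissue mast cell genes, 0.232 for mucosal genes, 0.186 for fibroblast signals, 0 for Notch and retinoic acid genes, -0.004 for BCL-2 genes and 1.374 for matrix genes. Quantile normalization gave 0.727, 0.331 (fibroblast signals), 0.177 (Notch), -0.644 (cytokines), -0.14 (interferon) and 2.479 (matrix). The mean of probes gave 0.579 for connective tissue and -0.021 for BCL-2 genes. Genes well above background on both arrays gave -0.858 for cytokines and 2.304 for matrix genes. With the array labelled Pla2g3-/- as baseline the medians were 1.627 (mucosal), 1.752 (SRF and YAP), 1.094 (fibroblast signals), 0.535 (integrins) and -0.166 (CDK inhibitors), and the neutrophil markers (1.332), eosinophil markers (0.719) and Pla2g3 (-5.358) reversed. The cause was not tested. Dim probes limit the large folds, which rest on low signals without fibroblasts. No paired analysis was possible because each group has 1 array.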
